A study of Homo sapiens with 4 samples.

Results

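The carcinoembryonic antigen-related cell adhesion molecules (CEACAM) of human chromosome 19 are described here in LoVo cells with and without MET. The 5 members are CEACAM1, CEACAM5, CEACAM6, CEACAM7 and CEACAM19, out of 13 CEACAM genes of chromosome 19 and 58825 gene rows in the count tables. They were chosen by their measured counts in MET+ against MET-KO libraries, so their differences between these groups are given as a description and without a test. LoVo is a line established from a colon adenocarcinoma, and its MET receptor is active without ligand. The study removed MET to ask how this receptor shapes the actin cytoskeleton and the transcription that responds to it.

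RNA was sequenced from 2 biological replicates of MET+ cells, which carry the genotype WT and a GFP control label, and from 2 of MET-KO cells, whose genotype is MET knock out. Both groups were grown in the same medium with serum, with no other treatment on the labels. For the knockout, cells received Cas9, a GFP plasmid and a guide against MET, were selected with puromycin and were picked as single clones that were then screened by western blot. The labels do not say whether both MET-KO libraries came from 1 clone or whether the MET+ cells were cloned. They also do not say whether both groups came from the same LoVo stock. An effect of MET loss therefore cannot be told apart from a difference between clones or stocks. MET itself (chromosome 7, 116672390 to 116798386) had 337 and 335 CPM in the MET+ libraries and 84.3 and 88.7 CPM in the MET-KO libraries. CPM are counts as a share of the library, on a common total, after scaling with edgeR's trimmed mean of M values (TMM).

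Depth was 8429142 and 10286552 counts for the MET+ libraries and 10137583 and 10228991 for the MET-KO libraries. Of 10 markers of colon epithelium, 8 had a count in each group, but not the same 8. CDX1 was at 0 in all 4 libraries, KRT20 was at 0 only in the MET+ group, and CDH17 only in the MET-KO group. More than 3 counts in a library were reached by 8 markers in the MET+ group and by 7 in the MET-KO group. LGALS4 had 89 and 107 counts in MET+ libraries and 1 count in each MET-KO library. The summed level of the 10 markers was 9657 to 9689 CPM in the MET+ group and 7324 to 8306 CPM in the MET-KO group. This sum does not show how single markers changed. Of 9 genes of the Y chromosome, 0 had a count in MET+ libraries and 8 had one in MET-KO libraries. Their summed level in the MET-KO group was 625 to 660 CPM, and the identity of the MET-KO line was not tested here. The groups therefore differed in more than MET, and the part of this difference in the values below was not tested. Of the other cell types, 0 of 6 granulocyte markers had a count in any library, and the leukocyte markers PTPRC and CD3E were at 0. The 7 leukocyte markers summed to 6.15 to 9.94 CPM in the MET+ group and 0.979 to 1.10 CPM in the MET-KO group, the 7 fibroblast markers to 1.64 to 2.17 and 3.62 to 4.32 CPM, and the 4 endothelial markers to at most 0.922 CPM.

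CEACAM proteins belong to the immunoglobulin superfamily and sit on the surface of epithelial cells, endothelium and leukocytes, where they bind each other on neighbouring cells. CEACAM5, the carcinoembryonic antigen measured in the blood of patients with colorectal cancer, and CEACAM6 and CEACAM7 are held in the membrane by a glycosylphosphatidylinositol (GPI) anchor, whereas CEACAM1 spans the membrane and can carry inhibitory tyrosine motifs in its tail. In normal colon these genes are expressed by differentiated cells of the upper crypt and surface, and CEACAM7 is typically lost in colorectal tumours while CEACAM5 and CEACAM6 are often abundant. CEACAM19 is a less studied transmembrane member.

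The promoters of 4 members are shown because CEACAM5, CEACAM6 and CEACAM1 were all lower in MET-KO cells while CEACAM7 gave no counts, and because the letters of these windows can be set side by side. CEACAM19 had no entry in the RefSeq promoter set used here, so its promoter could not be compared. The sequences are those of RefSeq on GRCh38.p14, from 250 bases before to 50 bases after the start site, written 5′ to 3′ on the strand of the gene. The capitals mark the hexamer that aligns with the E-box CACGTG of CEACAM5, the kind of site bound by the upstream stimulatory factors USF1 and USF2.
CEACAM5 (chr19:41708376-41708675, plus strand): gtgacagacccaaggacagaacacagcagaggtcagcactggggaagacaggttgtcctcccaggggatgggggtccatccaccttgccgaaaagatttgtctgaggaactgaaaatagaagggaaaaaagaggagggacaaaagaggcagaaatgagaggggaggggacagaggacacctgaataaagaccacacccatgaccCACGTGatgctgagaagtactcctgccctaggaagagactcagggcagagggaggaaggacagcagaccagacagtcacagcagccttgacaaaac
CEACAM6 (chr19:41755280-41755579, plus strand): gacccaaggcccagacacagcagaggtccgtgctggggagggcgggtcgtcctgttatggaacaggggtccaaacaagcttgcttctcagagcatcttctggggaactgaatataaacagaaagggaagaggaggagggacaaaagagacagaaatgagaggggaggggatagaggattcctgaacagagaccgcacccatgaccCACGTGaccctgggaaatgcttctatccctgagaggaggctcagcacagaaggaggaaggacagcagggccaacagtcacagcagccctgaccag
CEACAM7 (chr19:41688221-41688520, minus strand): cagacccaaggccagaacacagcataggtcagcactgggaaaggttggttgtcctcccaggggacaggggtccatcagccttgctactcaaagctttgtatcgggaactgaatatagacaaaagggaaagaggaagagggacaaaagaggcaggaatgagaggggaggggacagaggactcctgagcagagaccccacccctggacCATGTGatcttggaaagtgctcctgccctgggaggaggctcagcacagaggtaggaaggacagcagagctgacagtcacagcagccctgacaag
CEACAM1 (chr19:42528432-42528731, minus strand): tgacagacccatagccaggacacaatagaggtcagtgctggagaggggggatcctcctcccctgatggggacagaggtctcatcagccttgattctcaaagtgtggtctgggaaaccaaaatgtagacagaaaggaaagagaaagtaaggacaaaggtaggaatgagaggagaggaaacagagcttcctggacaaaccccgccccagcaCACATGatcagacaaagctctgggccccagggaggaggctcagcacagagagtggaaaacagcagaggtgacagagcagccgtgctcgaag

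CEACAM5 carried the E-box CACGTG 46 bases before its start site and CEACAM6 carried it 45 bases before. At the aligned place, counted from 1 at the 5′ end of the hexamer, CEACAM7 differed from it by C3T and CEACAM1 by G4A. The hexamers there, CATGTG and CACATG, are reverse complements of each other and still fit the wider E-box pattern CANNTG. The promoter pairs were 81.4% (CEACAM7 and CEACAM5), 80.5% (CEACAM7 and CEACAM6), 74.7% (CEACAM5 and CEACAM6), 71.2% (CEACAM7 and CEACAM1), 68.2% (CEACAM6 and CEACAM1) and 65.6% (CEACAM5 and CEACAM1) identical over the columns of a global alignment. CEACAM7, the member with 0 counts, thus had the promoter nearest in sequence to those of CEACAM5 and CEACAM6. GENCODE places the farthest start of each of these genes upstream of the RefSeq start, and which start the cells used was not measured.

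Other motifs were searched on both strands of the same windows and in all 35116 RefSeq promoters of that length. The E-box form CACGTG stood in 7.26% of all promoters. The GC box GGGCGG, a site of SP1, stood in CEACAM6 and CEACAM1 and in 45.0% of all promoters. The TATA box TATAAA stood in CEACAM6 and in 11.5% of promoters, and the nuclear receptor site AGGTCA in CEACAM7, CEACAM5 and CEACAM1 and in 13.8%. The TEAD site GGAATG, the letters read by the partners of YAP1, stood in CEACAM7 and CEACAM1 and in 14.0%, and the AP-1 site TGANTCA in 0 of the 4 windows and in 7.71%. A match is a stretch of letters and not a measured binding site.

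CEACAM6 and CEACAM5, the abundant GPI-anchored members of MET+ cells, were at or next to 0 counts in MET-KO cells, CEACAM1 was 11.9-fold lower, CEACAM19 was slightly higher, and CEACAM7 was not detected in any library. The 3' libraries give about 1 fragment per transcript whatever its length, so levels of different genes are compared here in CPM without a length term. In a bulk sample, fewer cells with a transcript and less transcript per cell cannot be told apart.

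CEACAM6 (ENSG00000086548, chromosome 19, 41750977 to 41772208, plus strand, GRCh38) is a GPI-anchored adhesion protein that is raised in many carcinomas. The MET+ libraries held 629 and 723 of its counts, which is 75.9 and 74.1 CPM, and the MET-KO libraries held 1 and 0. Its mean was 75.0 ± 1.27 CPM (SD, n = 2) in MET+ cells, which put it above 84.3% of the 13801 genes tested. The ratio of the summed counts after scaling was 1580, with an exact 95% counting interval of 283 to 62457, since the lower group rests on a single count. Where a value was needed for the median and the plot along the chromosome, MET-KO was set to 3 counts in each library, which gives a log2 value of -8.04 and understates the ratio.

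CEACAM5 (ENSG00000105388, chromosome 19, 41708585 to 41729798, plus strand) was counted 392 and 487 times in the MET+ libraries, which is 47.3 and 49.9 CPM. It had 0 counts in both MET-KO libraries, and 0 counts allow up to 0.294 and 0.276 CPM there. With a mean of 48.6 ± 1.85 CPM (SD, n = 2) in MET+ cells, it was at least 171-fold lower in MET-KO cells, taking 3 counts per library as the limit. Of 4005 tested genes with at least 40 CPM in MET+ cells, 17 lay at or under the limit of 3 counts in each MET-KO library, and CEACAM5 and CEACAM6 were among them. The level of 40 CPM lies under the MET+ mean of both, and both were chosen on this contrast, so their place among the 17 is a description only.

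CEACAM1 (ENSG00000079385, chromosome 19, 42507304 to 42561234, minus strand) is the member with a signalling tail. Its counts were 113 and 151 in MET+ libraries, or 13.6 and 15.5 CPM, against 11 and 15 in MET-KO libraries, or 1.08 and 1.38 CPM. The means were 14.6 ± 1.30 and 1.23 ± 0.214 CPM (SD, n = 2 each), and the fitted log2 fold change was -3.55 (standard error 0.30). The ratio of summed counts was 11.9, with an exact 95% counting interval of 7.92 to 18.5. Unlike CEACAM5 and CEACAM6, CEACAM1 stayed above the limit of 3 counts in every MET-KO library.

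CEACAM19 (ENSG00000186567, chromosome 19, 44662278 to 44684359, plus strand) had 21 and 26 counts in MET+ libraries, or 2.53 and 2.66 CPM. It had 35 and 54 counts in MET-KO libraries, or 3.43 and 4.96 CPM. The lower MET-KO library was thus above the higher MET+ library, with means of 2.60 ± 0.0925 and 4.19 ± 1.09 CPM (SD, n = 2 each) and a log2 fold change of 0.69 (standard error 0.36). The ratio of summed counts was 1.62, with an exact 95% counting interval of 1.13 to 2.36. The spread between the MET-KO replicates was a large part of this difference, and the log2 value was 0.40 without MET-KO replicate 2 and 0.93 without MET-KO replicate 1.

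CEACAM7 (ENSG00000007306, chromosome 19, 41673307 to 41706976, minus strand), a marker of normal colonic surface cells, had 0 counts in all 4 libraries. That allows at most 0.362 CPM in the shallowest of them. The levels in MET+ cells thus ran in the order CEACAM6, CEACAM5, CEACAM1, CEACAM19 and CEACAM7, and in that order the 2 libraries of each gene did not overlap those of the next. In MET-KO cells CEACAM19 came first and CEACAM1 second, and CEACAM6, CEACAM5 and CEACAM7 could not be ranked at this depth.

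The groups did not overlap in 4 of the 5 members, and they did not overlap in 75.6% of all tested genes. The 4 members that passed the filter on low counts had a median log2 fold change of -5.48 with CEACAM5 and CEACAM6 at their limits, beside 0.01 over all tested genes. CEACAM7 did not pass the filter. A log2 fold change as low as that of CEACAM1 or lower was found in 273 tested genes (1.98%), and one as high as that of CEACAM19 or higher in 21.2%.

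**Figure D1:**
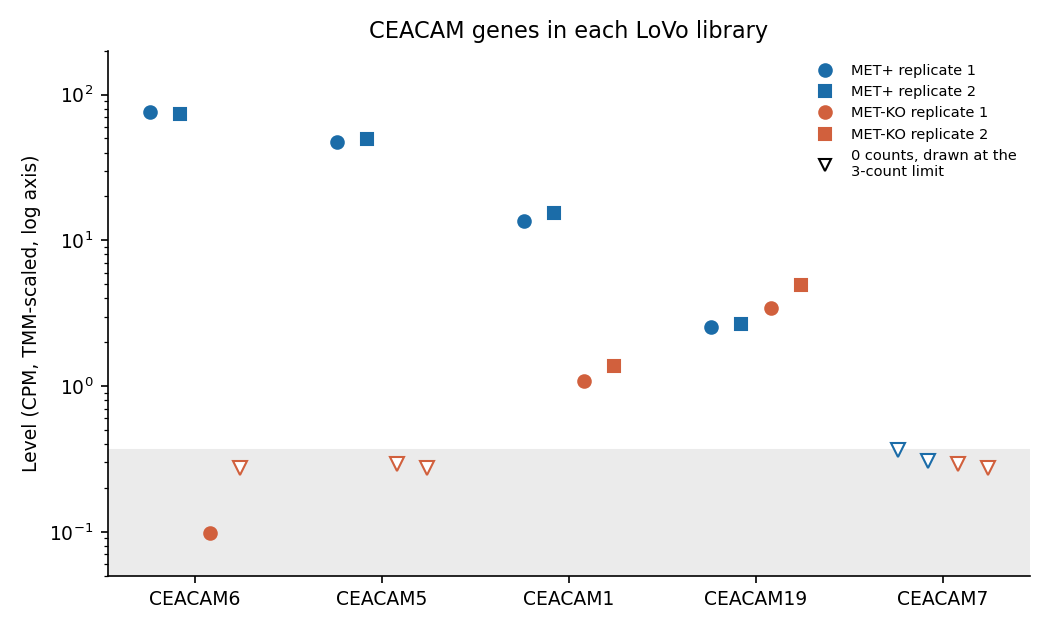
Level of each of the 5 CEACAM genes in each LoVo library, in CPM on a log axis, with circles for replicate 1 and squares for replicate 2. Open triangles are libraries with 0 counts, drawn at the level of 3 counts, and the grey band is the range under that limit. CEACAM6, CEACAM5 and CEACAM1 are higher in both MET+ libraries, CEACAM19 is higher in both MET-KO libraries, and CEACAM7 has 0 counts throughout.

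The family total was lower in MET-KO cells and its make-up was different. All 13 CEACAM genes together took 140.4 and 142.4 CPM in MET+ libraries and 4.60 and 6.43 CPM in MET-KO libraries, a ratio of means of 25.6. CEACAM6 made up 54.0% and 52.0% of CEACAM counts in the MET+ libraries and CEACAM5 33.7% and 35.0%. CEACAM1 followed with 9.71% and 10.9%, and CEACAM19 with 1.80% and 1.87%.

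In the MET-KO libraries the order was turned around. CEACAM19 made up 74.5% (exact 95% interval 59.7 to 86.1) and 77.1% (65.6 to 86.3) of 47 and 70 CEACAM counts, and CEACAM1 made up 23.4% (12.3 to 38.0) and 21.4% (12.5 to 32.9). The share of CEACAM1 was therefore higher in MET-KO than in MET+ libraries although its level was lower, because CEACAM5 and CEACAM6 were lower still. The exact 95% intervals of its share were 8.07 to 11.6 in MET+ replicate 1 and 9.28 to 12.6 in MET+ replicate 2. The interval of MET+ replicate 2 overlaps those of both MET-KO libraries, whose CEACAM1 shares rest on 11 and 15 counts. The intervals cover counting error only. Between the MET+ replicates the balance of the GPI-anchored pair was alike, since the exact 95% interval of the ratio of CEACAM6 to CEACAM5 counts was 1.41 to 1.82 in replicate 1 and 1.32 to 1.67 in replicate 2.

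**Figure D2:**
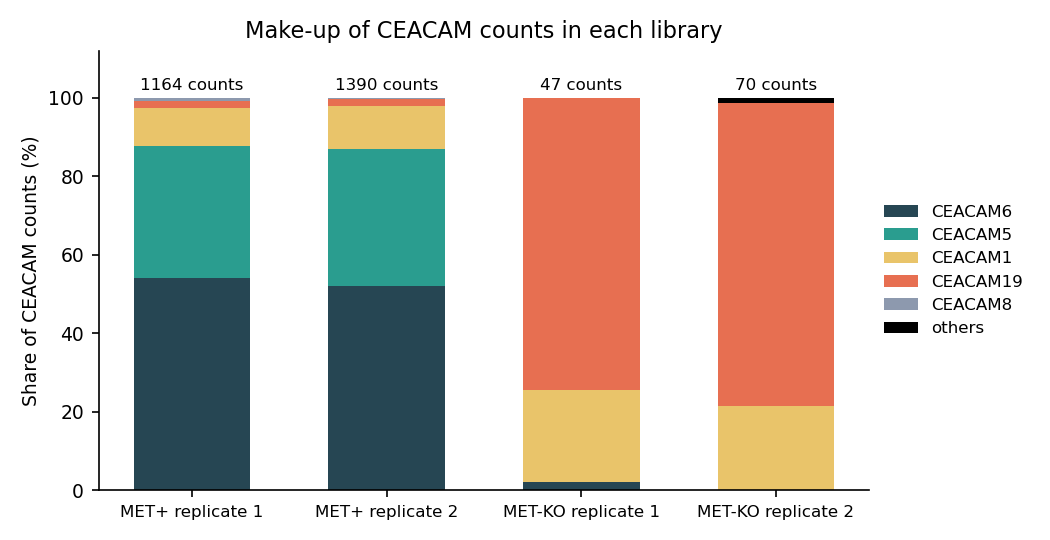
Share of each gene among all CEACAM counts of a library, in percent, with the number of CEACAM counts above each bar. The shares of CEACAM6 and CEACAM5 fill most of the MET+ bars, and CEACAM19 fills 74.5% and 77.1% of the MET-KO bars, which rest on 47 and 70 counts.

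The other 8 CEACAM genes were near or at 0. CEACAM8, a GPI-anchored protein of granulocytes, had 8 and 3 counts in MET+ libraries and 0 in both MET-KO libraries. Its MET+ mean was 2.23-fold the limit of 3 counts in MET-KO libraries, but MET+ replicate 2 was itself at 3 counts. CEACAM3, the granulocyte receptor that engulfs bacteria, had 1 count in MET+ replicate 1, and the pseudogene CEACAM22P had 1 count in MET-KO replicate 2. CEACAM4, CEACAM16, CEACAM18, CEACAM20 and CEACAM21 were at 0 in all libraries. The pregnancy-specific glycoproteins (PSG), secreted placental proteins encoded between CEACAM8 and CEACAM20, were at 0 for 8 of the 10 genes listed. PSG5 had 5 and 2 counts in MET-KO libraries and 0 in MET+ libraries, and PSG2 had 2 counts in MET-KO replicate 1.

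Members of a gene family can share stretches of sequence, which bears on how reads can be assigned. Of the 50-base words in the last 500 bases of the annotated transcripts, where these libraries are read, CEACAM6, CEACAM7 and CEACAM19 shared none with another CEACAM or PSG gene, CEACAM1 shared 2.70% and CEACAM5 3.56%. These shares leave out AC243967.1, a gene model on the same strand that overlaps 544 exon bases of CEACAM5 and 172 of CEACAM6 and was itself at 0 counts. With it, the share of CEACAM5 was 17.9%, and reads of the shared exons could belong to either gene. CEACAM1 overlaps 185 exon bases of the antisense gene LIPE-AS1, counted 16 and 42 times in MET+ and 56 and 40 times in MET-KO libraries. CEACAM19 overlaps 121 exon bases of PVR, counted 441 and 585 times in MET+ and 368 and 461 times in MET-KO libraries. None of these genes overlapped the 500 bases at the 3' end of the gene body of a member, although the last 500 bases of some CEACAM5 transcripts lie in part in exons of AC243967.1. Whether the counting used strand is not given in the sources used here. Without strand, reads of CEACAM1 and LIPE-AS1 in the shared bases cannot be told apart.

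The neighbours on chromosome 19 moved in both directions. Over 50 tested genes within 500 kb of a member, with CEACAM and PSG genes left out, 14 were higher and 11 were lower in MET-KO cells (edgeR's quasi-likelihood test, Benjamini-Hochberg adjusted p under 0.05), which is 50% against 54.1% of all tested genes. Their median log2 fold change was 0.07, and the median of the 873 tested genes of chromosome 19 was 0.01. Of these 873 genes, 10 had a log2 fold change at or below that of CEACAM1, itself included with CEACAM5 and CEACAM6.

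AXL, a receptor tyrosine kinase gene at lower coordinates than CEACAM5, rose from 1.15 to 39.8 CPM, a log2 fold change of 5.08 (adjusted p = 6.36e-19, edgeR's quasi-likelihood test). The zinc finger gene ZNF226 rose from 3.55 to 12.8 CPM, and the unnamed AC006486.2 had 5 counts in all in MET+ and 25 in MET-KO cells, a ratio of 4.28 (1.61 to 14.3). APOC1, an apolipoprotein, fell from 137 to 59.5 CPM, BCL3, a partner of NF-kappaB and, CEACAM genes left out, the next protein-coding gene after CEACAM19, from 27.8 to 13.8 CPM, and TGFB1 from 16.1 to 8.86 CPM. Apart from PVR and BCL3, the protein-coding genes next to the members were near 0 counts, CEACAM and PSG genes left out. ERICH4, LYPD4 and IGSF23 had 0 or 1 count in each library, CXCL17 had 4 and 2 counts in MET+ and 0 in MET-KO libraries, and CD177 had 2 and 6 against 3 and 7 counts.

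**Figure D3:**
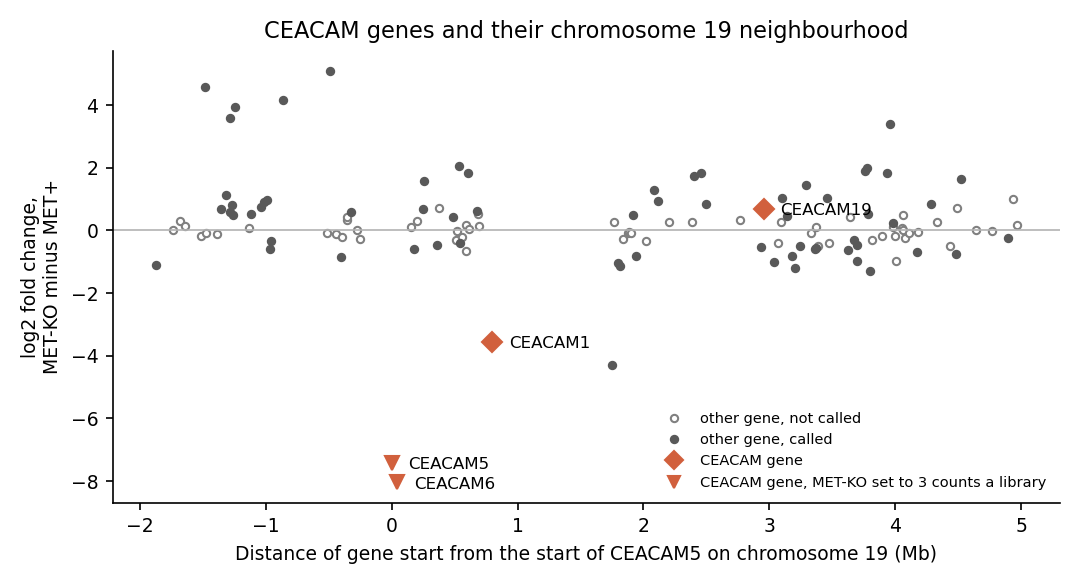
Log2 fold change, MET-KO minus MET+, of tested genes against the distance of their start from that of CEACAM5 on chromosome 19, in Mb. Grey points are other genes, filled where the edgeR test called them, diamonds are CEACAM genes, and triangles are CEACAM5 and CEACAM6 with MET-KO set to 3 counts a library. CEACAM5, CEACAM6 and CEACAM1 lie far under most of their neighbours and CEACAM19 lies among its own.

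Regulators known to act on CEACAM promoters were read next. All 11 listed regulators were tested and 11 were called, 5 higher (27.2% of all tested genes were called higher) and 6 lower (26.9% were called lower). With library totals alone, with DESeq2's Wald test or with at least 10 counts in every library, 9 of them were called. HNF4A, a nuclear receptor of differentiated gut epithelium, measured 65.3 and 82.4 CPM in MET+ libraries against 8.12 and 5.61 CPM in MET-KO libraries. The log2 fold change of HNF4A was -3.43, with a standard error of 0.16 (adjusted p = 5.75e-19, edgeR's quasi-likelihood test). SP1, which reads the GC box, fell from 36.2 to 13.4 CPM, a log2 fold change of -1.43 (adjusted p = 1.62e-09 in the same test), and its relative SP3 fell by 0.53 on the log2 scale.

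Of the E-box factors, USF1 rose and the lower call of USF2 depended on the setting. USF1 rose from 7.89 to 18.1 CPM (adjusted p = 3.53e-06), and USF2, the more abundant transcript, had 95.7 and 105.8 CPM in MET+ against 87.6 and 80.8 CPM in MET-KO libraries, a log2 fold change of -0.26 (adjusted p = 0.0289), both from the edgeR test. In the edgeR test, USF2 was not called with library totals alone (log2 fold change -0.16, adjusted p = 0.197) or with the replicate block (adjusted p = 0.0631). The same test did not call USF2 with at least 10 counts in every library (adjusted p = 0.0565), nor did DESeq2's Wald test (adjusted p = 0.0925). It was also not called without MET+ replicate 2 (log2 fold change -0.18) or MET-KO replicate 2 (-0.20). IRF1, the interferon-responsive factor, rose from 14.4 to 41.5 CPM, and STAT3 rose from 27.2 to 51.9 CPM. SOX9, a factor of crypt base cells, rose from 188 to 344 CPM. The list thus held regulators that moved with CEACAM5 and CEACAM6 and others that moved against them.

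Genes of the differentiated colonocyte are expressed with CEACAM5, CEACAM6 and CEACAM7 in normal colon. Of the 23 listed, 7 were at 0 in all libraries and 11 were tested. Of the 11 tested, 9 were called lower in MET-KO cells (26.9% of all tested genes were) and 2 higher (27.2% were). In 7 of these 11, a group had 3 counts or fewer in each library, so that they passed the filter on low counts only through the other group, and their calls were close to fixed. The median of the 11 was -4.71 on the log2 scale, -4.23 once the 5 genes with a group at 0 were set to their limits, and -2.37 over the 4 genes with at least 10 counts in every library. The cadherin CDH17 had 212 and 229 counts against 0 in both MET-KO libraries, so it was at least 86.1-fold lower. PHGR1, a small protein of surface colonocytes, was at least 38.6-fold lower and GUCA2A, the hormone guanylin, at least 26.8-fold lower, also with 0 counts in MET-KO cells. The genes that rose were KRT20, the keratin of surface cells, with 0 counts in MET+ and 27 and 28 in MET-KO libraries (at least 7.79-fold higher), and the mucin MUC13, from 13.0 to 66.6 CPM. KRT20 and MUC13 thus went in the direction opposite to CEACAM5 and CEACAM6.

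CEACAM5 and CEACAM6 need a GPI anchor to stay on the surface, and most genes that build it were not called. Of 29 genes of anchor assembly, 28 were tested, and 5 were higher, 4 lower and 19 not called, which is 32.1% called against 54.1% of all tested genes, with a median of 0.08. PIGV and PIGM, a pair of mannosyltransferases of the anchor, rose from 5.25 to 15.0 CPM and from 14.3 to 32.1 CPM, and DPM3, a subunit of the enzyme that supplies the mannose, from 34.2 to 66.2 CPM. PGAP3, a remodelling enzyme of the anchor lipid, fell from 4.26 to 1.46 CPM, the mannosyltransferase PIGB from 17.4 to 9.32 CPM and PIGL from 15.9 to 8.60 CPM.

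Other proteins with the same anchor moved both ways. Of 28 listed, 27 were found and 19 tested, with 7 higher, 7 lower and 5 not called, a median of -0.04 and 73.7% called against 54.1% of all tested genes. Under the stricter filter of 10 counts per library, 8 were higher and 4 lower. ALPP, a placental alkaline phosphatase, rose from 24.4 to 94.3 CPM, CD59, an inhibitor of complement, from 94.1 to 165 CPM, and GPC1, a glypican, from 45.5 to 79.3 CPM. LYPD3, also encoded on chromosome 19, fell from 20.6 to 1.02 CPM and NT5E, the ecto-5'-nucleotidase, from 23.4 to 1.67 CPM. LY6D was at 0 in both MET-KO libraries after 26 and 39 counts in MET+ libraries, at least 12.5-fold lower. The list thus held genes of both directions.

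Proteins that bind CEACAM1 or process its transcript were mostly expressed in both groups. Of 18 listed, 17 were tested, with 4 higher, 7 lower and 6 not called, a median of -0.16 and 64.7% called against 54.1% of all tested genes. Of the phosphatases that its tail recruits, PTPN6 rose from 6.06 to 11.6 CPM (edgeR's quasi-likelihood test, adjusted p = 0.00136), and PTPN11 was not called, at 43.0 and 41.1 CPM (log2 fold change -0.07). CALM2, 1 of the genes of calmodulin, which binds the tail, rose from 369 to 924 CPM. The actin crosslinker FLNA rose from 470 to 795 CPM. The adaptors SHC1 and PXN fell from 24.1 to 11.2 and from 139 to 89.1 CPM, and the kinase SRC, which phosphorylates the tail, fell by 0.56 on the log2 scale.

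**Figure D4:**
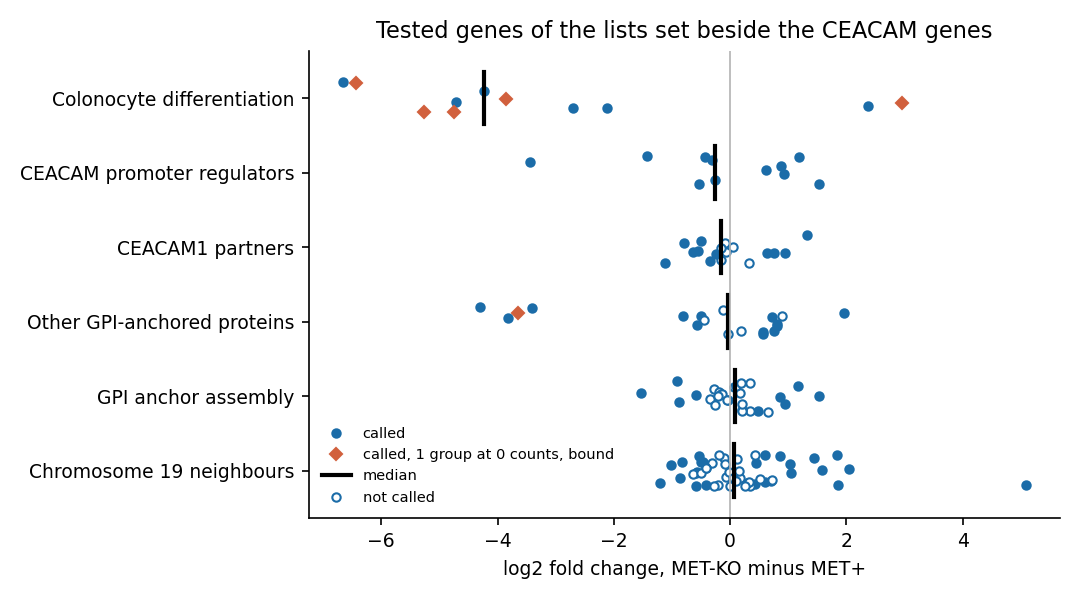
Log2 fold change, MET-KO minus MET+, of the tested genes of each list, filled where the edgeR test called them and open where it did not. Diamonds are genes with a group at 0 counts, set at the limit of 3 counts a library, and the black bar is the median with these limits. The colonocyte list lies lowest, with a median of -4.23, and the medians of the other 5 lists lie between -0.26 and 0.08.

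The genes whose 4 libraries were most like those of each member were found by the distance of log2 CPM over the 4 libraries, which includes the contrast that chose the members. Among the nearest to CEACAM5 was AGR2, a disulfide isomerase of goblet cells (distance 0.193), with 369 and 432 counts in MET+ libraries and 0 in both MET-KO libraries. Nearest to CEACAM6 were PRR15L (distance 0.615) and GPX2, the gastrointestinal glutathione peroxidase (distance 0.645), both also at 0 counts in MET-KO libraries. CEACAM1 lay nearest to ECHDC2 (distance 0.401) and SCARNA22 (distance 0.466), and CEACAM19 to LOXL3 (distance 0.156) and ETFBKMT (distance 0.263). The likeness is one of level and change in these 4 libraries.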

How the data were processed

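Total RNA of LoVo cells was sequenced as 3' libraries (QuantSeq, FWD) in 2 MET+ and 2 MET-KO samples, grouped by the genotype on the labels. The authors deposited whole read counts per gene, not normalized, for 58825 genes and 99 spike-ins at 0 counts. The submitters' processing notes name STAR 2.5.4a, featureCounts 1.6.2, cutadapt 1.16, DESeq2 1.18.1 and GRCh38, with no role stated. The annotation and strand setting are not given in the sources used here. Names and positions came from GENCODE v29 (GRCh38), which held 58552 of the IDs.

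Counts were filtered by filterByExpr, TMM-scaled and tested with edgeR 4.0.16 (R 4.3.3) by the quasi-likelihood test with condition as the only term, and p-values were Benjamini-Hochberg adjusted over 13801 genes with a threshold of 0.05. The paper's methods state no test for these counts. A group with 0 counts in each library was given a limit of 3 counts per library, as was CEACAM6 with 1 and 0 counts in MET-KO libraries, and intervals are exact 95% binomial. Nothing says that replicates came from separate cultures beyond the term biological, so p-values measure the spread between these libraries. Replicates differed by more than counting noise (chi-square per degree of freedom 5.45 and 4.86). Replicate numbers did not pair the libraries (correlation of deviations -0.02). Promoter pairs were aligned globally with Biopython 1.88.

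The members and gene lists were chosen with earlier results of these data known, and the lists were written from general knowledge. Named are MET, the members, other CEACAM or PSG genes above 3 counts, in each list the 3 called genes with the highest and the 3 with the lowest log2 fold change plus explained partners and regulators, the nearest protein-coding neighbours, and the 2 genes most like each member. A few genes that this rule names are not reported here. CEACAM3, CEACAM22P, PSG2 and the CEACAM genes at 0 complete the family. The alternatives were DESeq2 size factors, library totals alone, the Wald test of DESeq2 1.42.0, a fit without the filter, a minimum of 10 counts in each library, a replicate block, thinning to the smallest library and leaving out each library. The fit was tested on simulated data.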

Additional observations from a re-analysis of the deposited data

How the results depend on the processing

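Under the 11 alternatives, 140 of 145 values were labelled the same, 5 moved and 0 reversed. For counts of called genes, the label went by the total within a set range and did not look at direction. Library totals alone gave 4361 higher and 3003 lower calls in place of 3755 and 3712, and this was labelled the same. With a minimum of 10 counts in every library, CEACAM5 and CEACAM6 dropped out of the test, and the median over the 2 members left was -1.39. The limits of CEACAM5 and CEACAM6 (-7.38 and -8.00) were still scored under that minimum. The same minimum left 4 colonocyte genes, all called, with a median of -2.37, and 8 higher and 4 lower GPI-anchored genes in place of 7 and 7. Of the 11 promoter regulators, 9 to 11 were called, and the calls lost were lower ones (USF2, HIF1A and SMAD4, the last pair named after their values were seen). Without a filter, 1 of 3 other CEACAM genes was called, which was CEACAM8, lower in MET-KO cells. That call rests on 8 and 3 counts in the MET+ libraries. The limit for CEACAM5 was a log2 value of -7.32 with library totals alone and -7.15 after thinning. Leaving out each library in turn gave log2 fold changes of -3.74 to -3.39 for CEACAM1 and 0.40 to 0.93 for CEACAM19, limits of -7.46 to -7.37 for CEACAM5 and -8.09 to -7.99 for CEACAM6, 11 called colonocyte genes each time, and 6291 to 6921 calls over all genes. With the replicate number as a block there were 7055 calls in place of 7467 and CEACAM1 was at -3.55, and DESeq2's Wald test made 5760 calls. The low counts of CEACAM19 and of MET-KO cells limit the precision, and 0 counts do not show that a transcript was absent.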
